A study of Mus musculus with 6 samples.

Results

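The cyclins of the G1, S and G2/M phases and their kinases were followed in the liver of mice given trichloroethylene (TCE), an industrial solvent. The 10 genes were Ccnd1, Ccnd2, Ccnd3, Ccne1, Ccne2, Ccna2, Ccnb1, Ccnb2, Cdk1 and Cdk2, taken by gene symbol from the 24239 genes that had a symbol on the array. All samples came from male B6C3F1 mice, a hybrid strain, with an age of 7 weeks in the labels. Control mice (n = 3) received corn oil by mouth, and TCE mice (n = 3) received TCE in corn oil at 1000 mg/kg b.w. a day, both for 5 days. Liver RNA of each mouse was hybridized to a 1-colour array of its own, so the replicates were separate animals. The signal was put on the log2 scale and quantile normalized, and a difference of 1 on that scale is a 2-fold change.

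Cyclins are the regulatory subunits of cyclin-dependent kinases (CDKs), and each kinase is active only while its cyclin is present. D-type cyclins, with Cdk4 and Cdk6, respond to growth signals in G1 phase. Cyclin E with Cdk2 drives entry into S phase, cyclin A2 works in S and G2 phase, and the B-type cyclins with Cdk1 drive mitosis. Hepatocytes of adult liver are mostly quiescent and can re-enter the cycle after tissue loss or exposure to mitogens.

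The mRNAs of cyclin A2, both B-type cyclins and Cdk1 were higher in the TCE mice, while those of the D-type cyclins, Ccne1 and Cdk2 did not pass the test. Of the 9 genes that could be tested, 4 rose past the threshold, namely Ccna2, Ccnb2, Ccnb1 and Cdk1, and 0 fell. The threshold was a limma adjusted p of 0.05 or less and a change of at least 2-fold. Across all 13288 genes tested, 1.3% were past it in the upward direction and 0.429% in the downward direction. Ccna2, Ccnb1 and Cdk1 were not well above background in every control mouse and entered the test only through the TCE mice, so the count is a description. Where a probe had to be well above background on all 6 arrays, 1 of the genes was past the threshold, Ccnb2, and 166 genes in all. At an adjusted p alone, the same 4 were called, against 1.8% of all genes in the upward direction. In 5 genes, the 4 named and Ccnd1, every TCE mouse lay above every control mouse, which held for 17.1% of all genes tested. Ccne2 was well above background in none of the 6 mice and could not be tested. The median log2 fold change of the 9 genes was 0.70, compared with 0.02 for all genes tested. This median and the 5 genes without overlap include Ccna2, Ccnb1 and Cdk1, which entered only through the TCE mice. Both are therefore descriptions too. With 3 mice per group the number of arrays limits the precision, and an exact permutation test of 1 gene (two-sided) cannot give a p below 0.1.

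Promoter sequences are shown for Ccnb1, Ccnb2 and Cdk1, which rose, and for Cdk2, a kinase gene that did not pass the test, so that the letters upstream of the genes can be compared. The set of promoter sequences used held 6 of the 10 genes, and not Ccnd1, Ccnd2, Ccne2 and Ccna2, so that 3 of the 4 genes that rose are compared. Each sequence is 300 bases long, with 250 bases before and 50 bases from the gene start on GRCm38.p6, written 5′ to 3′ on the strand of the gene. All 4 genes lie on the minus strand, Ccnb1 at chr13:100786437-100786736, Ccnb2 at chr9:70421505-70421804, Cdk1 at chr10:69352863-69353162 and Cdk2 at chr10:128705002-128705301. Capitals mark 3 kinds of short motif, searched on both strands. The first was CCAAT, the box bound by NF-Y, which reads ATTGG where it lies on the reverse strand. The next was TTTGAA, a form of the cell cycle genes homology region known from mitotic genes. The last were the E2F forms TTTCGCGC, TTTGGCGC, TTTCCCGC and TTTGCCGC. None of the marked motifs overlapped another.
Ccnb1: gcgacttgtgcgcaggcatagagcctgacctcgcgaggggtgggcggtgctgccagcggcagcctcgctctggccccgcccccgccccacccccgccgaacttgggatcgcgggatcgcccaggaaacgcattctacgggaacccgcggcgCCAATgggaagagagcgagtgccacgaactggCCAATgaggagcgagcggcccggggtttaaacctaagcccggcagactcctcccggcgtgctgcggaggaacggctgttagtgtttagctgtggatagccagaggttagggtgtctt
Ccnb2: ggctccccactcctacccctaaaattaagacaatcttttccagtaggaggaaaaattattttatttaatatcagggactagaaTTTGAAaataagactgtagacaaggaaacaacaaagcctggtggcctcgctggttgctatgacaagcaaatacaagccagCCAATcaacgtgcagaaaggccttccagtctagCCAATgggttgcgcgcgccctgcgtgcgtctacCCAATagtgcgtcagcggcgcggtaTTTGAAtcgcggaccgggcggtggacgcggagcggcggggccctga
Cdk1: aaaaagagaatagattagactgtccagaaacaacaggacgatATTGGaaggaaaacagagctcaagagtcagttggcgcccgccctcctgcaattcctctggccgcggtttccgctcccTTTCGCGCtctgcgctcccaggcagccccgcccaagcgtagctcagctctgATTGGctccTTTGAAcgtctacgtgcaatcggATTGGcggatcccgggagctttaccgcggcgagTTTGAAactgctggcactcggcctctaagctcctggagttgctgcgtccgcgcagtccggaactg
Cdk2: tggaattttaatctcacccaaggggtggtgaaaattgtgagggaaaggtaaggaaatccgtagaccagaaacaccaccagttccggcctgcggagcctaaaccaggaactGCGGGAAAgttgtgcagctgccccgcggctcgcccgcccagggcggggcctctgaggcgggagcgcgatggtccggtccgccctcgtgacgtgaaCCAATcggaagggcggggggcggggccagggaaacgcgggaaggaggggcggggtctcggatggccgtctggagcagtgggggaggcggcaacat

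Positions are those of the first base of a match, counted from 1 at the gene start and negative upstream of it. The Ccnb1 promoter held CCAAT at -99 and -67, which are 32 bases apart. In Ccnb2 CCAAT stood at -87, -54 and -21, with 33 bases between neighbours, and TTTGAA at -167 and 5. The Cdk1 promoter held ATTGG at -208, -80 and -48, the latter pair 32 bases apart, TTTGAA at -71 and -15, and TTTCGCGC at -131. In the Cdk2 promoter there was 1 CCAAT, at -45, and 1 E2F form, on the reverse strand at -140. Thus Ccnb1, Ccnb2 and Cdk1 each carried a pair of CCAAT boxes 32 or 33 bases apart on the same strand, and Cdk2 did not. A pair on the same strand at 31 to 34 bases was found in 0.895% of 32851 promoters of the same length. That window brackets the spacings seen here, so the share is a description and not a test of these promoters. CCAAT at any place was found in 37.4% of the 32851 promoters, TTTGAA in 17.9% and an E2F form in 2.26%. Of the other entries, the Ccne1 promoter held none of these letters, and of 2 Ccnd3 promoters 1 held a CCAAT, at -108. A match describes the letters only, and binding was not measured.

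In all 3 D-type cyclins the difference between the groups was under 2-fold and did not pass the test. The probe of Ccnd1, the cyclin D gene that is induced when hepatocytes receive growth signals, lies on chromosome 7 of the mouse build mm9 from 152116202 to 152116261. Its log2 signal was 9.60, 9.33 and 9.51 in control mice 1, 2 and 3 and 10.28, 9.95 and 10.32 in TCE mice 1, 2 and 3. All TCE mice were above all control mice, but the log2 difference of 0.70 with a standard error of 0.15 was under 2-fold and had a limma adjusted p of 0.0809. At an unadjusted limma p of 0.05 it was past, as were the 4 genes named first, against 12% of all genes tested in the upward direction. In the downward direction 0 of the 9 genes were past it, against 7.1%. Of the 4, Ccna2, Ccnb1 and Cdk1 entered the test only through the TCE mice, so this count is a description as well.

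Ccnd2, a further cyclin D gene (chromosome 6, 127098696 to 127098755), had signals of 7.70, 7.35 and 7.55 in control mice and 7.12, 7.42 and 7.78 in TCE mice. The groups overlapped, and the log2 difference was -0.10 (standard error 0.20, limma adjusted p = 0.836). The TCE mice were spread more widely than the control mice, from below the lowest control to above the highest.

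Ccnd3, the remaining cyclin D gene, has 2 probes on chromosome 17, and both were well above background in every mouse. The brighter one (47736579 to 47736638) gave 12.29, 12.48 and 12.48 in control mice and 12.48, 12.57 and 12.34 in TCE mice, a difference of 0.05 (standard error 0.12, limma adjusted p = 0.871). The other (47736267 to 47736326) gave 10.87, 10.99 and 10.92 against 11.00, 11.05 and 10.93, a difference of 0.07 (limma adjusted p = 0.770). In both the groups overlapped.

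**Figure D1:**
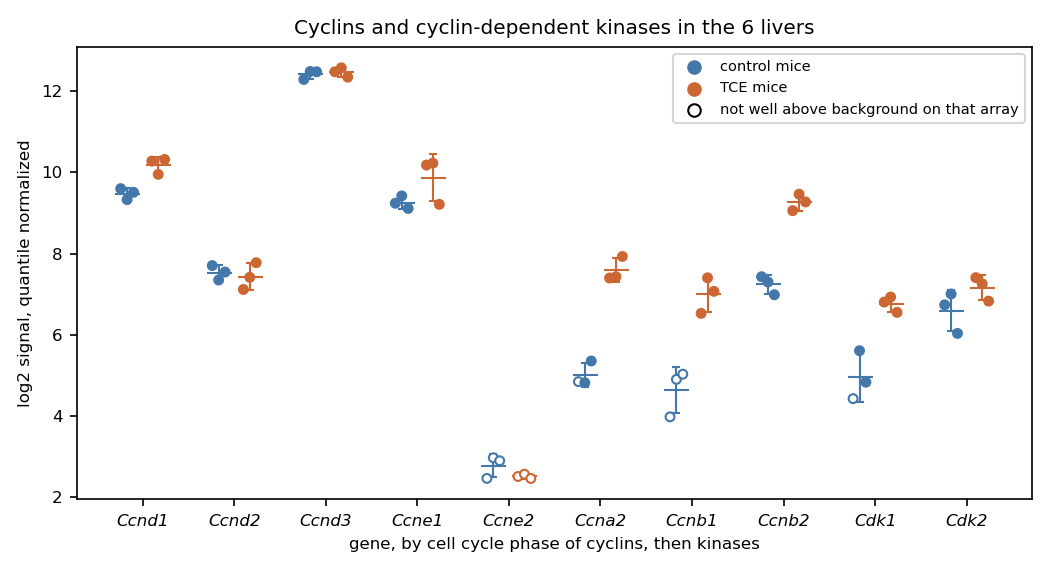
The log2 signal of the lead probe of each gene is plotted for each of the 6 mice, with the mean and SD (n = 3) of each group as lines. Open points were not well above background on that array; the groups are separate for Ccnd1, Ccna2, Ccnb1, Ccnb2 and Cdk1, and the signal of 1 probe cannot be set against that of another.

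Ccne1 and Ccne2 encode the E-type cyclins that partner Cdk2 at the start of S phase. For Ccne1 (chromosome 7, 38882937 to 38882960, a stretch of its lead probe) the control mice gave 9.24, 9.42 and 9.11, and the TCE mice gave 10.18, 10.23 and 9.21. TCE mice 1 and 2 lay above all control mice, whereas TCE mouse 3 lay within their range. The log2 difference of 0.62 had a standard error of 0.29 and a limma adjusted p of 0.331. Without TCE mouse 3 it was 0.95, with a limma adjusted p of 0.0644. The second Ccne1 probe was well above background in TCE mouse 1 only. Ccne2 (chromosome 4, 11131423 to 11131482) gave 2.47, 2.97 and 2.90 in control mice and 2.51, 2.57 and 2.46 in TCE mice, so a difference could not be measured at this signal.

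Cdk2, the kinase that cyclin E and cyclin A activate, had signals of 6.74, 7.01 and 6.04 in control mice and 7.41, 7.26 and 6.83 in TCE mice (chromosome 10, 128135658 to 128135717). TCE mouse 3 lay below control mouse 2, so the groups overlapped. The log2 difference was 0.57 (standard error 0.28, limma adjusted p = 0.356).

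The rise of Ccna2, the cyclin of S and G2 phase, was the largest by fitted change of the 4 called genes. Its probe (chromosome 3, 36463978 to 36464037) gave 4.85, 4.82 and 5.36 in control mice, of which control mouse 1 was not well above background, and 7.40, 7.43 and 7.93 in TCE mice. The groups were far apart relative to their spread. The log2 fold change of 2.58 (standard error 0.22), or 5.97-fold, had a limma adjusted p of 0.00544. Under normexp, another background correction, which here adds an offset of 50 to the signal, it was 1.38, still past the threshold. Such an offset by construction lowers the log2 change of a dim probe more than that of a bright one.

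Ccnb2, a B-type cyclin of mitosis, was well above background in all 6 mice. Its probe (chromosome 9, 70255671 to 70255730) gave 7.43, 7.30 and 6.99 in control mice and 9.06, 9.46 and 9.27 in TCE mice. The lowest TCE mouse was more than 1 log2 unit above the highest control mouse. The log2 fold change of 2.02 (standard error 0.17), or 4.07-fold, had a limma adjusted p of 0.00544.

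Ccnb1, the cyclin whose accumulation and destruction mark entry into and exit from mitosis, was dimmer. The lead probe (chromosome 13, 101548722 to 101548781) gave 3.98, 4.90 and 5.03 in control mice, in none of which it was well above background, and 6.53, 7.40 and 7.07 in TCE mice, in all of which it was. The rise was 4.54-fold when computed against a limit for each control array. This limit was the lowest signal that was well above background there, or the signal of the probe if higher. Control mice 2 and 3 lay above the lowest such signal of their arrays (4.52 and 4.75) and were still not well above background. The 4.54-fold is therefore not a strict minimum for this probe. The fitted log2 change, set against control signals that were not well above background, was 2.36 (standard error 0.34, limma adjusted p = 0.0302), and under normexp it was 0.86, under 2-fold. Of the other Ccnb1 probes, the one at 101553449 to 101553508 gave 2.65, 2.64 and 4.50 in control mice and 4.64, 5.12 and 5.25 in TCE mice, and it was well above background in TCE mice 2 and 3 only. The one at 101551224 to 101551283 was well above background in none. Both were higher in every TCE mouse than in every control mouse, but neither was tested. RefSeq lists a pseudogene of Ccnb1 and one of Ccnb2, and signal from these copies on the probes was not tested.

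Cdk1, the kinase of mitosis, gave 4.43, 5.61 and 4.84 in control mice at its lead probe (chromosome 10, 68801072 to 68801131) and 6.81, 6.93 and 6.55 in TCE mice. Control mouse 1 was not well above background, and control mouse 2 was the highest control. The log2 fold change of 1.81 (standard error 0.30), or 3.50-fold, had a limma adjusted p of 0.0440. A second probe at 68801053 to 68801112, whose position overlaps that of the lead probe, and one at 68799513 to 68799572 were well above background in none of the mice. At both of them the groups overlapped, and neither was tested. Of the 16 probes of all 10 genes, 10 could be tested, and those past the threshold were the 4 lead probes. Across 22736 probes tested, 1.03% were past it in the upward direction.

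**Figure D2:**
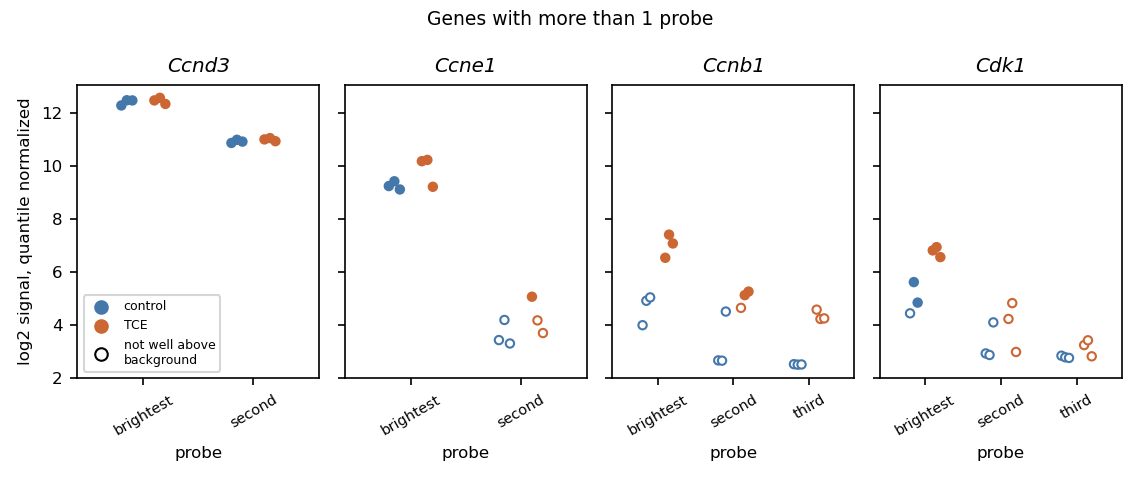
The log2 signal of every probe is plotted for each mouse in the 4 genes that have more than 1 probe, ordered by brightness. Both Ccnd3 probes were measured in every mouse, whereas the further probes of Ccne1, Ccnb1 and Cdk1 were mostly not well above background.

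Not all of the 4 calls were kept when a mouse was left out. Fewer mice also lowered the calls over all genes, from 230 with 6 mice to between 91 and 163 with 1 left out. Ccna2 and Ccnb2 were past the threshold with each mouse left out in turn, with limma adjusted p values of 0.0154 to 0.0308 and 0.0183 to 0.0322. For Ccnb1 the change stayed between 2.03 and 2.60, but the call was lost in all 6 cases (limma adjusted p 0.0615 to 0.103). That of Cdk1 was lost in 5 of the 6 (limma adjusted p up to 0.147) and kept only without control mouse 2 (limma adjusted p = 0.0272). The array of control mouse 1 was alone on its slide and was scanned apart, and the other 5 mice shared a slide. Within that slide, that is without control mouse 1, Ccna2 was 2.50 and Ccnb2 2.12 higher on the log2 scale, and Ccnb1 and Cdk1 were 2.03 and 1.54 higher with limma adjusted p values of 0.0615 and 0.104. With the slide as a block the limma adjusted p was 0.0282 for Ccna2, 0.0212 for Ccnb2, 0.0570 for Ccnb1 and 0.0976 for Cdk1. Under normexp the change of Cdk1 was 0.80, which is under 2-fold.

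**Figure D3:**
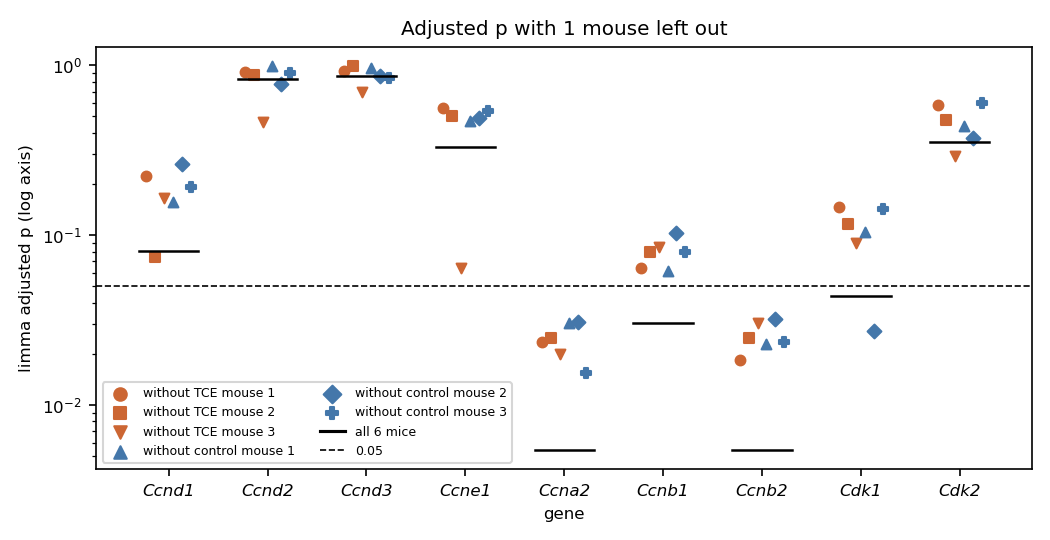
The limma adjusted p of each of the 9 tested genes is plotted on a log axis with each mouse left out in turn, beside the value for all 6 mice as a bar and the 0.05 threshold as a dashed line. Only Ccna2 and Ccnb2 have all their points under the line.

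Changes of different genes were set against each other within mice, for 3 pairs picked after their values were seen and therefore given without a test. The difference of log2 change between Cdk1 and Cdk2 was 1.23, that between Ccna2 and Ccne1 was 1.96 and that between Ccnb2 and Ccnd1 was 1.32. In each of the 3 pairs the within-mouse differences of the TCE mice lay apart from those of the control mice. The choice of pairs by their values favoured this, and no share over all pairs of genes was computed. Cdk1 and Ccna2 entered the test only through the TCE mice, so these values are descriptions. The highest TCE mouse was not the same for every gene, being TCE mouse 2 for Ccnb1, Ccnb2 and Cdk1, TCE mouse 3 for Ccna2 and Ccnd1, and TCE mouse 1 for Cdk2.

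**Figure D4:**
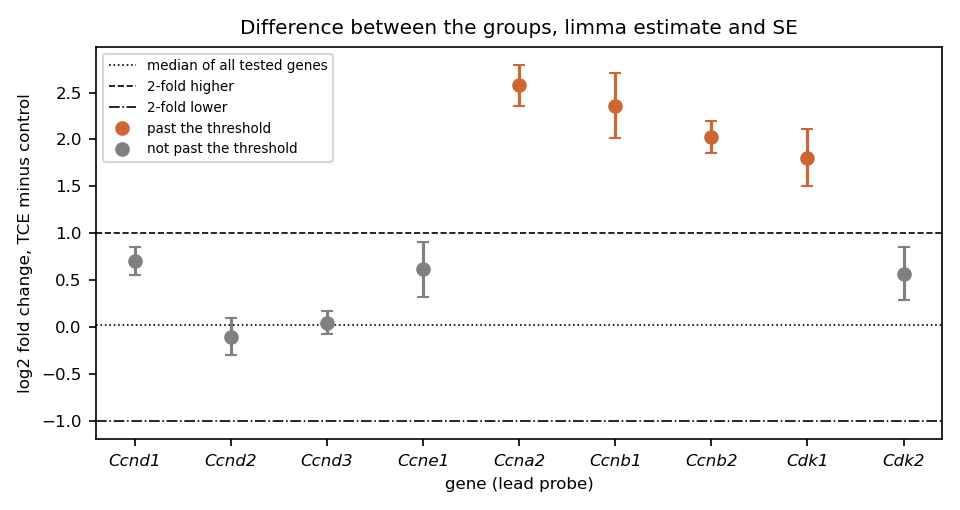
The limma estimate of the log2 fold change (TCE minus control) is plotted with its standard error for the 9 tested genes. The 4 genes past the threshold lie between 1.81 and 2.58 and the other 5 between -0.10 and 0.70. The point for Ccnb1 is the fitted value, set against control signals that were not well above background.

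The partners and regulators of these genes were counted in 8 lists, with the brightest tested probe of each gene. Among CDK activators and brakes, which include the Cdc25 phosphatases and the kinases Wee1 and Pkmyt1, 2 of 11 tested genes rose, 0 fell and the median log2 change was 0.68. Plk1, a mitotic kinase that promotes activation of Cdk1, rose by a fitted log2 change of 3.61 (limma adjusted p = 0.00374). It was well above background in no control mouse and entered the test only through the TCE mice. Against the array-wide limit described for Ccnb1 the rise was 9.17-fold, which is not a strict minimum. Aurka, a centrosome kinase that activates Plk1, rose by a log2 change of 2.19 (limma adjusted p = 0.00752). Under normexp these changes were 1.56 for Plk1 and 1.27 for Aurka, both still past the threshold.

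In the list of cyclin destruction, 2 of 20 tested genes rose and 0 fell, with 10 genes higher, 10 lower and a median of 0.03. Both act with the anaphase-promoting complex, the ubiquitin ligase that marks the B-type cyclins for degradation. Cdc20, its mitotic activator, rose by a log2 change of 3.59 (limma adjusted p = 0.00508), and Ube2c, its ubiquitin-conjugating enzyme, by 2.88 (limma adjusted p = 0.0252, lost in 4 of the 6 fits with a mouse left out). Under normexp they were 2.42 and 1.32, and both were past the threshold. Of 18 pocket protein and E2F genes, which control transcription at the G1/S and G2/M transitions, 1 rose, 0 fell and the median was 0.23. It was Foxm1, a transcription factor of G2/M genes, with a log2 change of 1.76 (limma adjusted p = 0.0283, lost in 5 of the 6 fits). Under normexp it was 0.76 and not past the threshold. Like Plk1, Ube2c and Foxm1 were not well above background in every control mouse. They entered the test only through the TCE mice, so their calls are descriptions. Among 8 tested proliferation markers 2 rose, 0 fell and the median was 0.77. Those that rose were Mki67, which encodes the Ki-67 antigen of cycling cells, with a log2 change of 2.44 (limma adjusted p = 0.00176), and Birc5, a mitotic and anti-apoptotic protein, with 2.25 (limma adjusted p = 0.00112). The replication genes Mcm2, Mcm5, Mcm6, Pcna, Rrm2 and Tk1 did not pass the test. Mcm5 differed by 1.73 (limma adjusted p = 0.0600) and Mcm6 by 0.89 (limma adjusted p = 0.168). In 7 of the 8 markers every TCE mouse lay above every control mouse, against 17.1% of all genes tested. In Tk1 every TCE mouse lay below (log2 difference -0.40).

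In the other 4 lists 0 genes were past the threshold in either direction. Of 3 tested cell cycle CDKs, 1 was higher and 2 were lower, and Cdk4, the main partner of D-type cyclins in liver, differed by -0.16 (limma adjusted p = 0.668) and Cdk5, an atypical CDK, by -0.07 (limma adjusted p = 0.767). Of 13 other cyclins and cyclin-like genes 6 were higher and 7 lower, and Ccni and Ccnl2 differed by -0.17 and -0.05 (limma adjusted p = 0.580 and 0.911). Of 14 CDKs with roles in transcription and elsewhere, 11 were higher and 3 lower, and Cdk18 and Cdk11b differed by 0.14 and 0.13 (limma adjusted p = 0.655 and 0.769). The 6 tested CDK inhibitors had 2 higher and 4 lower, and Cdkn1b (p27) and Cdkn2d differed by -0.42 and -0.13 (limma adjusted p = 0.301 and 0.737). In that list Cdkn1a, which encodes p21, and Cdkn3, a phosphatase that acts on CDKs, were named after their values were seen. Their limma adjusted p values of 0.0568 and 0.0616 missed the threshold at log2 differences of 1.99 and 2.28. For Cdkn3 no control mouse was well above background, and against the array-wide limit described for Ccnb1 its difference was 2.71-fold.

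**Figure D5:**
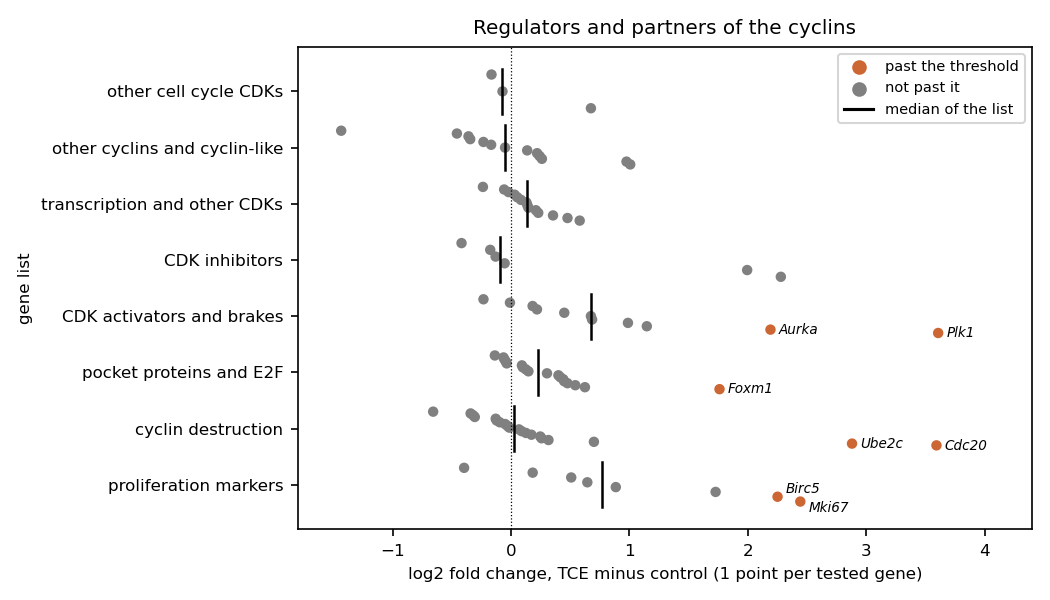
Each point is the log2 fold change (TCE minus control) of 1 tested gene of the 8 lists, with the median of each list as a bar. The 7 genes past the threshold are named, and all are to the right of 1.

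The tissue label was checked with marker genes. All 8 hepatocyte markers, among them Alb, were well above background in all mice. In whole liver, fewer cells of a type and less RNA per cell cannot be told apart. In each of the marker lists of 8 cell types 0 genes were past the threshold. The log2 of the summed signal of the T, B and NK cell markers was 13.90 to 14.20 in control mice and 12.37 to 13.86 in TCE mice, and Cd3g, Cd8a, Ms4a1 and Ncr1 were well above background in none of the mice. For the 6 neutrophil markers it was 10.35 to 10.85 and 10.76 to 11.06, with Mpo well above background in none of the mice. S100a8, of that list, differed by 1.19 with no overlap (limma adjusted p = 0.0886). For the 7 erythroid markers it was 16.24 to 16.77 and 14.90 to 16.50, and of the tested ones 2 were higher and 4 lower. Alas2 differed by -0.91 on the log2 scale (limma adjusted p = 0.0215) and Tfrc by 0.97 (limma adjusted p = 0.118). For the 6 endothelial markers it was 13.42 to 13.60 and 12.83 to 13.42, and for the 8 hepatocyte markers 20.43 to 20.47 and 20.29 to 20.40. The ranges of the macrophage, stellate and bile duct lists overlapped between the groups, and the stellate marker Lrat differed by -1.35 with no overlap (limma adjusted p = 0.0677). These 4 single markers were named after their values were seen. The part of these cells in the changes of the cyclins was not tested.

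For Ccnd1 and Cdk1, the pattern over the 6 mice was compared with that of the lead probes of 13275 other genes, by the root mean square difference of log2 signal after the mean of each probe was taken off. The genes most like Ccnd1 were Olfr1443 (0.0509), Abcd3 (0.0695), Prpf19 (0.0718), Fbxo5 (0.0834) and Dgkz (0.0884). None of these 5 was past the threshold, with limma adjusted p values from 0.0536 to 0.164. Those most like Cdk1 were Casc4 (0.274), Chtf18 (0.275), BC030867 (0.287), Aurka (0.309) and Kif20b (0.309). Of these 5, all except BC030867 (limma adjusted p = 0.0694) were past it. The measure keeps the difference between the groups, so genes like a called gene are apt to be called as well. Chtf18, BC030867 and Kif20b were not well above background in every control mouse and entered the test only through the TCE mice. In log2 units Cdk1 was thus matched less closely than Ccnd1, and the likeness, over 6 mice of 2 groups, is a description.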

How the data were processed

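Liver RNA of 6 mice, 1 per array, was labeled with Cy3. The authors extracted the spots with Agilent Feature Extraction 10.7.1.1 (submitters' processing notes), and the deposited intensity is background-subtracted and corrected within the array. The authors' further-processed table holds group means of quantile-normalized log2 values, and all 16 member probes lay within 0.01 of those computed here. Gene symbols and probe positions (mm9) come from that table.

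Outlier spots (123 to 189 per array) were left out, and 0 spots were saturated. The log2 of the intensity was taken with a pseudocount of 0, averaged over the spots of a probe and quantile normalized. Between 23538 and 24971 probes per array were well above background. A probe was tested if so flagged on each of the 3 arrays of 1 or both groups. The test was limma 3.58.1 (eBayes after lmFit, two-sided, with no covariate but group) under R 4.3.3, with statmod 1.5.0 and data.table version 1.17.8, and Benjamini-Hochberg adjustment over all tested probes. The tested probe with the highest mean signal, called the lead probe, stood for a gene. The methods' t-test was an alternative. The procedure was tested on simulated data. Figures were drawn with Python 3.11.15 and matplotlib 3.10.9.

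The members, lists and tests were chosen with earlier results of these data known. Genes named are the members, the genes of each list past the threshold (at most 4) or, where none was, the 2 with the highest mean signal, and the 5 genes most like Ccnd1 and Cdk1. Cdk7 and Ccnh stand in 2 lists. The deposited flags for background, outlier spots and saturation on each array were used here. Other deposited detection flags and annotation terms were not. Some single marker genes are not reported here.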

Additional observations from a re-analysis of the deposited data

How the results depend on the processing

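Of the 9 tested genes, 4 were past the threshold in the analysis given above, and 230 genes in all, in both directions. Totals over all genes follow each count. The count among the 9 was 2 (Ccna2 and Ccnb2) under normexp (170 in all), with no filter on dim probes (66 in all) and with the slide as a block (128 in all). It was 1 (Ccnb2) where probes had to be well above background on all 6 arrays (166 in all). That last filter removed Ccna2, Ccnb1 and Cdk1 from the test, and of the called list genes Plk1, Ube2c and Foxm1. With 1 mouse left out the count was 2 to 3 (91 to 163 in all). By the methods' t-test after Benjamini-Hochberg adjustment it was 0 (20 in all). Without adjustment it was 4 (411 in all), as it was by limma (230 in all). The offset of 50 under normexp by construction lowers the log2 changes of dim probes. How far it, or anything else apart from the filter on all arrays, made these differences was not tested. The count was 3 with array weights, without Cdk1 (279 in all). It was 4 with 75th percentile scaling, outlier spots kept, another variance model, the mean of all tested probes of a gene and an adjusted p alone. In these settings 229 to 317 genes were called in all. For the 4 called genes only the lead probe was tested, so the mean over tested probes left their changes as they were. Groups did not overlap in 5 genes under 75th percentile scaling and under normexp. No change of the called genes turned its direction. Ccnd2 was above 0 in 1 of 17 alternatives and Ccnd3 below 0 in 3. The limma adjusted p of Ccnd1 was 0.0423 to 0.264 over its alternatives, at under 2-fold in each. Replicate numbers do not pair the mice: deviations of same-numbered mice correlated at 0.0897, 0.00672 and -0.0918, and control mouse 2 correlated best with TCE mouse 3. With the replicate block the count was 2 (Ccna2 and Ccnb1), and 45 genes were past the threshold in all instead of 230. Plk1, Ube2c and Foxm1 also lost their calls with it (limma adjusted p 0.0643, 0.121 and 0.120). Without a filter on dim probes Aurka, Ube2c and Foxm1 lost theirs (0.0575, 0.119 and 0.120), and with the slide as a block Foxm1 did (0.0920). Signals near background limit Ccnb1, Ccne2, Cdk1 and Ccna2.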
